A study of Homo sapiens with 12 samples.

Results

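The mRNAs that encode the machinery of miRNA-guided mRNA decay were followed through the precipitates, as 10 gene rows of the 61782 listed. They were chosen by gene symbol as effectors of deadenylation, decapping and 5′ to 3′ decay, by a rule that uses no measured value. CNOT1, CNOT6, CNOT6L, CNOT7 and PAN3 belong to the deadenylases, DDX6, EDC4, DCP1A and DCP2 to the decapping machinery, and XRN1 is the exonuclease that degrades decapped mRNA. For 9 of them the row carries a single name. EDC4 stands in a row that also carries the names CTC-479C5.10 and NRN1L, so that its value cannot be assigned to EDC4 alone.

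The study set out to find mRNAs bound by Argonaute 2 (AGO2) when miR-143 is overexpressed, using RNA immunoprecipitation and sequencing in K562, a human erythroleukemia cell line. According to the methods the cells carried an inducible C/EBPα-ER fusion, and induction is not mentioned for these samples. Infection was with pLV-control or pLV-miR-143 lentiviral particles, followed by puromycin selection, and RNA was precipitated with an AGO2 antibody (AGO) or unspecific immunoglobulin (IgG). The resulting groups control_IgG, control_AGO, miR143_IgG and miR143_AGO comprise 3 labelled samples each, from 3 experiments called independent in the series text. Levels are the authors' average per group, in FPKM (fragments per unit of transcript length, relative to all mapped fragments). With 1 value per gene and group there was no spread between replicates, so that no difference given here has a replicate check or a test. All cells were of the same line and all carried a vector, and the level of an mRNA per cell cannot be told apart from the share of cells that contain it.

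miRNAs guide an Argonaute protein to sites in the 3′ UTR of mRNAs, where a GW182 protein (TNRC6) recruits the PAN2-PAN3 and CCR4-NOT deadenylase complexes. Shortening of the poly(A) tail is followed by removal of the cap by DCP2 with its cofactors and by digestion with XRN1. The genes described encode this machinery, and their own mRNAs can be miRNA targets as well. What was measured here is the recovery of their mRNAs with AGO2, not the activity or the amount of their proteins.

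The mature miR-143-3p sequence and the matches to its seed in the members' 3′ UTRs are shown because miR-143 was the miRNA overexpressed. Capitals mark the seed (bases 2 to 8) in the miRNA and the seed match in the UTR, with up to 11 bases on either side. An 8mer match reads TCATCTCA, a 7mer-m8 match TCATCTC and a 7mer-A1 match CATCTCA, searched on the strand of the mRNA, and a 7-base match inside an 8mer was counted once as 8mer. The miRNA is taken from RefSeq (GRCh38.p14, chr5:149428978-149428998, plus strand) and the UTR sequence from GRCh38 with GENCODE 29. All windows lie in the 3′ UTR, at chr13:28292588-28292617 and chr13:28293663-28293691 for PAN3 (plus strand), chr11:118748774-118748802 for DDX6 (minus strand), chr5:113016735-113016763 and chr5:113019819-113019847 for DCP2 (plus strand), and chr3:142307441-142307469 for XRN1 (minus strand).
hsa-miR-143-3p: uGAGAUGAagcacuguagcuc
PAN3, 8mer, 77 bases after the stop codon: tgaacttttcaTCATCTCAttcacatttgg
PAN3, 7mer-A1, 1152 bases after: ctgaataagtcCATCTCAaaagtttggga
DDX6, 7mer-A1, 3314 bases after: tggaatcaaaaCATCTCAttctgatgacg
DCP2, 7mer-m8, 3262 bases after: cctttctttttTCATCTCcaacagttaaa
DCP2, 7mer-A1, 6346 bases after: aaatttaaaacCATCTCAtttcagaataa
XRN1, 7mer-A1, 4053 bases after: atgcattcagcCATCTCAagtgcaatttg

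PAN3 thus carried the 1 8mer among the members, and CNOT1, CNOT6, CNOT6L, CNOT7, EDC4 and DCP1A held no match in the UTR searched. A match is a description of the sequence and does not show that AGO2 was bound there.

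The groups differed in composition and in where their lowest values began, and both touch the values below. In the direction of the labels, the MIR143 row had no signal in control cells, and miR-143 cells had 44781 FPKM with IgG and 118393 FPKM with AGO. Protein-coding rows held 7.90% and 8.38% of the summed FPKM in the IgG groups of control and miR-143 cells, against 42.0% and 37.2% in their AGO groups. Fragment numbers are unknown, but the lowest values, which approach what a single fragment is worth, began higher in control_IgG than elsewhere, at 12.6 times the edge of miR143_AGO, whereas the edges of miR143_IgG and control_AGO were 1.64 and 1.09 times that of miR143_AGO. Values with the groups scaled to the same coding sum are given where they change a result. Rows above 0 ranged from 8393 in control_IgG to 12937 in miR143_AGO. In control_IgG, 4 members lay at less than 10 times that low edge: CNOT6L at 0, PAN3 at 2.86 times, XRN1 at 4.63 times and DCP1A at 6.85 times. In the other groups all 10 members lay at 98.9 times the edge or more. The erythroid markers GATA1 (52.0 to 73.2 FPKM) and KLF1 (41.9 to 289 FPKM) were present in all groups. Of the other defining markers, TAL1 and LMO2 were listed in all groups, and the globins HBG1, HBG2 and HBE1 shared a joined row at 229 to 523 FPKM. Of markers of other cell types, CD3E and ALB were at 0 throughout, COL1A1 and PTPRC did not exceed 1.75 FPKM and EPCAM reached 8.28 FPKM in miR143_IgG.

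The deadenylase mRNAs spanned the whole range of levels. CNOT1 encodes the scaffold on which the CCR4-NOT complex is built, and its gene lies on the minus strand at chr16:58519951-58629886 (GRCh38). In control cells it was listed at 43.8 FPKM with IgG and 195 FPKM with AGO, and in miR-143 cells at 136 and 158 FPKM. CNOT1 was the most abundant member in every group but control_IgG, where DCP2 was higher. Of the protein-coding rows above 0 in the same group, CNOT1 exceeded 98.8% in control_AGO and 87.4% in control_IgG. It made up 83.0% of the members' summed FPKM in control_AGO and 21.9% in control_IgG. Exons of SETD6 lie on the opposite strand within reach of CNOT1, and SETD6 was listed at 5.56 (IgG) and 10.8 FPKM (AGO) in control cells and at 43.2 and 4.69 FPKM in miR-143 cells. Whether the libraries kept the strand is not stated, so that reads of overlapping genes on opposite strands cannot be told apart. SNORA46 and SNORA50, snoRNAs that lie in introns of CNOT1, were at 0 in all groups.

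The catalytic subunits were far lower than the scaffold in the AGO precipitates. CNOT6 (chr5:180494412-180578405, plus strand), a CCR4-type deadenylase, went from 1.63 FPKM with IgG to 6.45 with AGO in control cells and from 4.43 to 8.62 in miR-143 cells. Its paralog CNOT6L (chr4:77713387-77819615, minus strand) was at 0 with IgG and 2.10 FPKM with AGO in control cells, and at 1.00 and 5.29 FPKM in miR-143 cells. For both paralogs each AGO group lay above the IgG group of the same cells. The pseudogene CNOT6LP1 was at 0 in both IgG groups and at 1.01 and 1.22 FPKM in the AGO groups, and reads shared between it and CNOT6L could have been split.

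CNOT7, the CAF1-type deadenylase, showed the opposite arrangement. Its IgG values were 23.4 FPKM in control and 37.2 FPKM in miR-143 cells and its AGO values 2.63 and 5.92 FPKM, so that both IgG values exceeded both AGO values. CNOT7 lies on the minus strand of chromosome 8 (17224964 to 17246878), and its exons overlap those of VPS37A on the plus strand, which was listed at 2.81 and 2.33 FPKM with IgG and at 12.4 and 6.44 FPKM with AGO. VPS37A was thus higher in the AGO groups, where CNOT7 was lower. The pseudogene CNOT7P1 was at 1.78 FPKM in control_IgG and at 0 in the other groups. PAN3 (chr13:28138506-28295335, plus strand), the adaptor subunit of the other deadenylase, was at 0.397 FPKM with IgG and 2.52 with AGO in control cells, and at 7.90 and 1.81 FPKM in miR-143 cells. Its highest and its lowest value were both in mock precipitates.

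Of the 4 decapping factors, DDX6 and DCP2 had their highest and DCP1A its lowest value in control_IgG. DDX6 (chr11:118747766-118791149, minus strand), the RNA helicase that links CCR4-NOT to decapping, was listed with IgG at 14.4 FPKM in control and 4.86 FPKM in miR-143 cells, and with AGO at 1.81 and 3.55 FPKM. DCP2 (chr5:112976702-113020970, plus strand), the decapping enzyme, had IgG values of 93.8 FPKM in control and 14.3 FPKM in miR-143 cells and AGO values of 10.99 and 15.4 FPKM. For DDX6 and DCP2 the control_IgG value stood above the other groups, which differed less among themselves. An antisense gene, AP002954.1, overlaps exons of DDX6 on the opposite strand and had no value listed under that name. The joined row with EDC4 (chr16:67873023-67884503, plus strand), a scaffold of the decapping complex, held 21.0 FPKM (IgG) and 6.50 FPKM (AGO) in control cells and 43.1 and 20.7 FPKM in miR-143 cells. DCP1A (chr3:53283428-53347610, minus strand), the activator of DCP2, went from 0.785 FPKM with IgG to 5.63 with AGO in control cells and stood at 4.21 and 6.21 FPKM in miR-143 cells. In both populations its AGO value was above its IgG value.

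XRN1 (chr3:142306607-142448062, minus strand), which digests mRNA from the exposed 5′ end, was listed at 0.314 FPKM (IgG) and 1.25 FPKM (AGO) in control cells and at 3.64 and 1.84 FPKM in miR-143 cells. It was the lowest member of control_AGO, and PAN3 was the lowest of miR143_AGO. The median over the 10 mRNAs was 8.04 FPKM in control_IgG, where 4 of them were under 1 FPKM. In the other groups, where all 10 were at 1 FPKM or more, it was 4.13 FPKM (control_AGO, coding rows of at least 1 FPKM 6.01), 6.38 FPKM (miR143_IgG, 7.21) and 6.06 FPKM (miR143_AGO, 6.07).

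**Figure D1:**
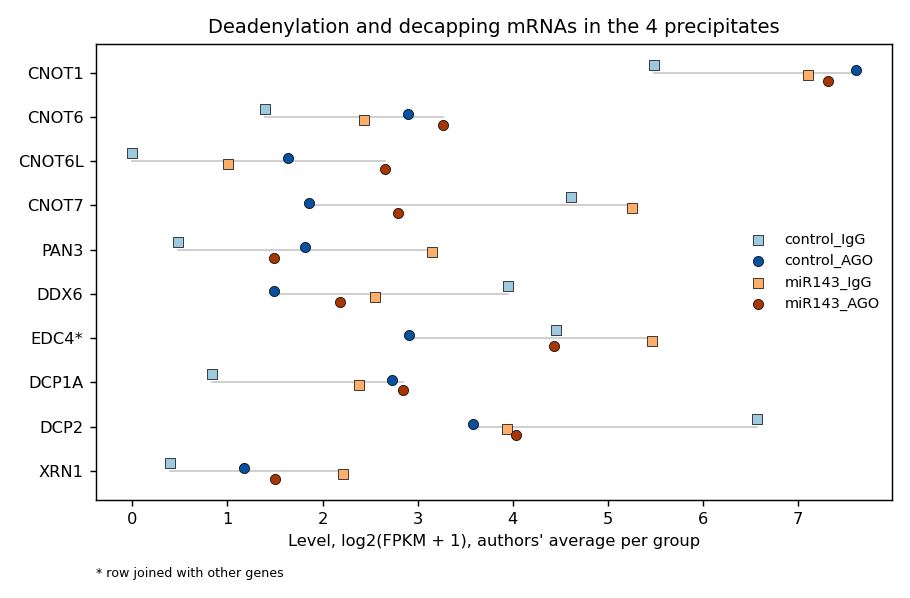
Levels of the 10 mRNAs (rows) as log2(FPKM + 1) on the x axis, with 1 point per group, squares for IgG and circles for AGO precipitates, and a grey line from the lowest to the highest group; points are authors' averages and have no error bars. CNOT1 stands apart on the right in the AGO groups (195 and 158 FPKM), and DCP2 in control_IgG (93.8 FPKM) is far from its other values.

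The first comparison asked which of these mRNAs were recovered with AGO2 rather than with unspecific IgG in control cells. Ratios are given as log2 of (FPKM + 1) over (FPKM + 1), which understates changes of low genes, over rows of at least 1 FPKM in a group compared, and all 10 members passed this filter in each comparison. Among these 10 mRNAs, most for deadenylation were higher with AGO2 in control cells and most for decapping lower. Of all rows compared, 34.5% were at least 2-fold higher and 36.2% lower, and 10 further deadenylation genes, described below, split into 3 higher and 3 lower. No contrast between the 2 roles is therefore read from these few genes. Of the 5 deadenylation factors, 4 were at least 2-fold higher in control_AGO than in control_IgG, namely CNOT1 at 2.13, CNOT6 at 1.5, PAN3 at 1.33 and CNOT6L, for which no fold is given because it was listed at 0 in control_IgG, although it enters counts and medians through the added 1 FPKM. CNOT7 was the exception at -2.75. Of the 4 decapping factors, 3 were at least 2-fold lower, with DCP2 at -2.98, DDX6 at -2.46 and the joined EDC4 row at -1.55, and DCP1A was higher at 1.89. XRN1 lay between at 0.78.

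In all, 5 of 10 members were at least 2-fold higher and 4 were at least 2-fold lower, against 34.5% and 36.2% of all 9919 rows compared. The members' median of 1.05 (all rows -0.19) falls in the gap between those higher and those lower and describes no single gene. The study used a threshold of 10-fold, which 9.36% of all rows passed on the scale with 1 FPKM added. None of the 10 members passed it on that scale, and with 0.1 added CNOT6L did, from 0 to 2.10 FPKM. XRN1, within 2-fold here, was 3.98-fold higher on the deposited FPKM. Differences of 2-fold are thus common between these precipitates, and the members' counts are not read beyond that background. The 4 members at the low edge of control_IgG (CNOT6L, PAN3, XRN1, DCP1A) all had positive ratios, and the part of the depth of control_IgG in them was not tested. With the groups scaled to the same median or to the same coding sum, all rows split 41.5% higher to 28.01% lower and 41.1% to 28.5%, and the median of all rows shifted up by 0.58 and 0.54.

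The same comparison in miR-143 cells gave a different picture. CNOT6L was the 1 member at least 2-fold higher in miR143_AGO than in miR143_IgG, at 1.65. CNOT7 at -2.46, PAN3 at -1.67 and the joined EDC4 row at -1.03 were at least 2-fold lower. The remaining 6 lay within 2-fold, from XRN1 at -0.71 and DDX6 at -0.36 through DCP2 at 0.10, CNOT1 at 0.21 and DCP1A at 0.47 to CNOT6 at 0.83. DDX6 turned to 0.04 with the groups scaled to the same coding sum, and under the 3 scalings (same median, upper quartile or coding sum) the EDC4 row lay within 2-fold (-0.79 to -0.54) and CNOT6 passed 2-fold (1.04 to 1.26). Among all 10643 rows 26.6% were higher and 33.5% lower by 2-fold, and 5.27% differed 10-fold, which no member did with 1, 0.1 or 0.01 FPKM added. The median was -0.13 for the members and -0.22 for all rows. Scaled to the same upper quartile or to the same coding sum, all rows split 32.9% higher to 27.4% lower and 34.7% to 25.5%, with the median of all rows shifted up by 0.38 and 0.49. The members' median thereby changed sign, to 0.20 and 0.31, and so did that of all rows, to 0.16 and 0.27.

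Between the cell populations, CNOT6L was higher with AGO2 in both, and CNOT7 and the EDC4 row were lower in both. PAN3 was at least 2-fold higher with AGO2 in control cells and at least 2-fold lower in miR-143 cells. DCP2 and XRN1 also had opposite signs (in all 3 of 10 members, against 34.6% of 8648 rows), with DCP2 at -2.98 and 0.10 and XRN1 at 0.78 and -0.71. The AGO values of both AGO groups lay above both IgG values for CNOT1, CNOT6, CNOT6L and DCP1A, and below both for CNOT7, DDX6 and the EDC4 row.

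**Figure D2:**
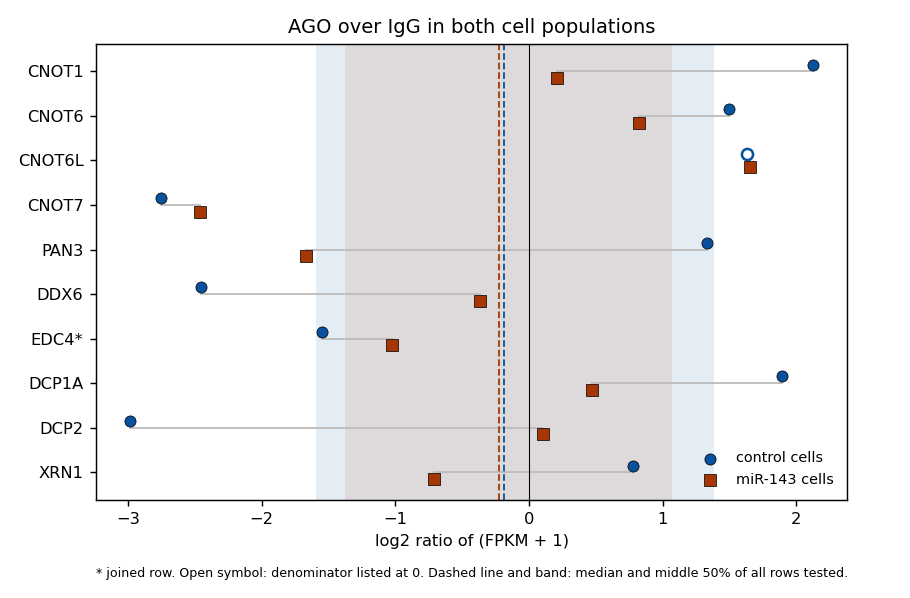
Ratio of AGO over IgG (x axis, log2 of FPKM + 1) for each mRNA in control cells (blue circles) and miR-143 cells (brown squares), without error bars because each group has 1 average. The open circle is CNOT6L, listed at 0 in control_IgG; dashed lines and bands are the median and the middle 50% of all rows compared, and PAN3 and DCP2 move furthest between populations (from 1.33 to -1.67 and from -2.98 to 0.10).

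The comparison of miR143_AGO with control_AGO (the AGO pair) addressed the study's main question, which mRNAs gain AGO2 association with miR-143. With 1 FPKM added, 8 members differed by less than 2-fold, CNOT7 among them, which was 2.25-fold higher on the deposited FPKM and past the limit with 0.1 added. The joined EDC4 row was higher in miR143_AGO at 1.53 and CNOT6L at 1.02, both at least 2-fold, and no member was 2-fold lower. CNOT7 at 0.93 and DDX6 at 0.70 came next, followed by DCP2 at 0.45, CNOT6 at 0.37, XRN1 at 0.33 and DCP1A at 0.12. CNOT1 at -0.30 and PAN3 at -0.33 had negative ratios, so that CNOT1, PAN3, DDX6 and DCP2 differed in sign from the mock comparison that follows, as 48.8% of rows did. Thus 2 of 10 members were at least 2-fold higher, where 17.7% of 9798 rows were, and 0 of 10 were lower, where 14.1% were. A difference of 10-fold was reached by 1.03% of all rows, and by no member with 1, 0.1 or 0.01 FPKM added. The median of the members was 0.41 and that of all rows 0.17. CNOT6L stood just past the 2-fold limit, and scaling the groups to the same median took it to 0.97, whereas with the same upper quartile CNOT7 passed the limit as well, at 1.08.

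EDC4 and CNOT6L hold no miR-143 match in the UTR searched. For the joined row only the UTR of EDC4 was searched, not that of NRN1L, so its value cannot be assigned to an mRNA without a match. The 4 members with a match were within 2-fold in this comparison, with DDX6, DCP2 and XRN1 above 0 and PAN3, which holds the 8mer, below 0.

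For 7 of the 10 members the mock precipitates differed more between the populations than the AGO precipitates did, near the share among all rows (69.8% of 8056). In miR143_IgG over control_IgG (the IgG pair), 7 members were at least 2-fold higher: PAN3 at 2.67, XRN1 at 1.82, CNOT1 at 1.62, DCP1A at 1.55, CNOT6 at 1.04, the EDC4 row at 1.01 and CNOT6L, for which no fold is given. CNOT6L is at the limit with 1.00 FPKM against 0, and under the 3 scalings it left both the count, which became 6, and the rows tested. DCP2 at -2.63 and DDX6 at -1.40 were at least 2-fold lower, and CNOT7 stood at 0.64. Of all 10172 rows 36.2% were higher and 26.8% lower by 2-fold, and 8.87% differed 10-fold. On this scale no member did, but the added 1 FPKM decides it, since on the deposited FPKM PAN3 was 19.9-fold and XRN1 11.6-fold higher, and with 0.1 added in place of 1 PAN3 and CNOT6L passed 10-fold. The median was 1.02 over the members and 0.17 over all rows. For 7 members, CNOT1, CNOT6, PAN3, DDX6, DCP1A, DCP2 and XRN1, the 2-fold limit was passed in the IgG pair and not in the AGO pair, as it was for 39.8% of the 8056 rows compared in both. PAN3, XRN1, DCP1A and CNOT6L are the members at the low edge of control_IgG, and the depth of that group was not tested as a part of these ratios. DDX6, CNOT1 and DCP2 were far from the edge there, at 129, 540 and 1222 times.

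**Figure D3:**
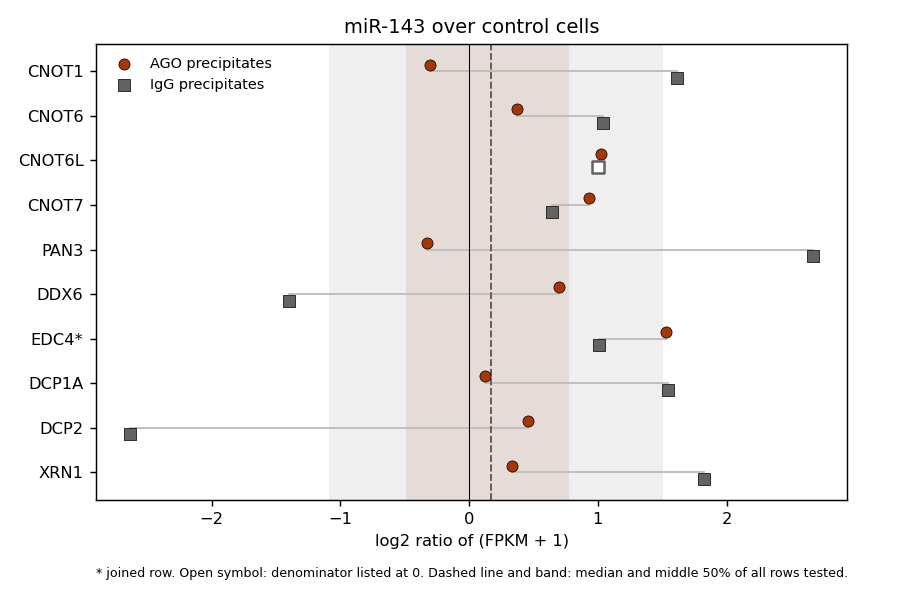
Ratio of miR-143 over control cells (x axis, log2 of FPKM + 1) for each mRNA in AGO precipitates (brown circles) and IgG precipitates (grey squares), from the authors' averages. Dashed line and bands are the median and the middle 50% of all rows; the AGO values lie between -0.33 and 1.53 and the IgG values between -2.63 and 2.67, and the open square is CNOT6L, listed at 0 in control_IgG.

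Taking the mock into account, the IgG-corrected ratio is the log2 AGO over IgG value of the miR-143 cells minus that of the control cells, and it is built from the same 4 values. It was at least 2-fold higher for DCP2 at 3.09 and DDX6 at 2.09 and at least 2-fold lower for PAN3 at -2.999, CNOT1 at -1.92, XRN1 at -1.49 and DCP1A at -1.43. CNOT6 at -0.67, CNOT7 at 0.29 and the EDC4 row at 0.52 lay within 2-fold, and CNOT6L is given no value because of its 0 in control_IgG. Among 11914 rows 29% were higher and 33.5% lower, and 10.3% differed 10-fold. No member did with 1 FPKM added, and PAN3 did with 0.1 added. The median was -0.33 for the members and -0.09 for all rows. The AGO values behind these extremes were closer to each other than the IgG values, with 10.99 and 15.4 FPKM for DCP2 and 2.52 and 1.81 FPKM for PAN3.

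Long 3′ UTRs were shared by most members, a feature that their choice did not use. Over 6850 rows of 1 protein-coding gene with an annotated 3′ UTR and at least 1 FPKM in an AGO group, the median length was 1351 bases. Of the 10 members, 8 fell in the longest quartile, above 2699 bases. DCP2 had the longest at 7486 bases and CNOT6L followed at 7044, then CNOT7 at 5756, XRN1 at 4904, DDX6 at 4339, CNOT6 at 4205, DCP1A at 4152 and PAN3 at 2813. CNOT1 at 1007 bases and EDC4 at 355 bases were the exceptions. The most abundant member in AGO precipitates therefore had a UTR below the median. AGO over IgG was taken over those of the rows with a UTR that were compared, from the shortest to the longest quartile. Control cells had medians of -0.18, 0.04, 0.27 and 0.40, and miR-143 cells had -0.05, 0.08, 0.15 and 0.26. The rows had to reach 1 FPKM in an AGO group, which leaves out rows that reached it with IgG alone. Over all coding rows compared, the median was -0.13 for the control and -0.14 for the miR-143 population. The level of the quartile medians is therefore not read as recovery with AGO2. The part of the filter in their rise with length was not tested. In the AGO pair the quartile medians were 0.17, 0.14, 0.13 and 0.17.

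Seed matches for miRNA families common in blood cells were counted in the same UTRs. For miR-143-3p 4 of 10 members had a match, against 24.9% of the 6850 rows and 52.1% of those in the longest quartile. A miR-181a-5p match was found in 8 members (26.3% of rows and 56.5% of the longest quartile), in all but DDX6 and EDC4. Matches to miR-17-5p, miR-19a-3p and miR-30a-5p stood in 5 members each (31.5%, 22.1% and 23.5% of rows and 64.5%, 47.5% and 51.2% of the longest quartile), and matches to miR-92a-3p, let-7a-5p and miR-16-5p in 4 members each (20.2%, 18.3% and 30.2% of rows and 45.2%, 39.4% and 56.1% of the longest quartile). DCP2 and XRN1 had most, with 11 matches each, CNOT6, CNOT6L and CNOT7 had 9 each, DCP1A 5, PAN3 4, DDX6 3, CNOT1 1 and EDC4 0. With 1 FPKM added, CNOT1, with its single match to miR-181a-5p, had the highest AGO over IgG value of the members in control cells. DCP2, with 11, had the lowest. This order depends on the added 1 FPKM. On the deposited FPKM, DCP1A (7.18-fold) and PAN3 (6.35-fold) were raised more than CNOT1 (4.44-fold), and CNOT6L rose from 0. CNOT7, with 9 matches, was 8.91-fold lower and DCP2 8.54-fold lower, so no relation to the number of matches is read from these ranks.

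**Figure D4:**
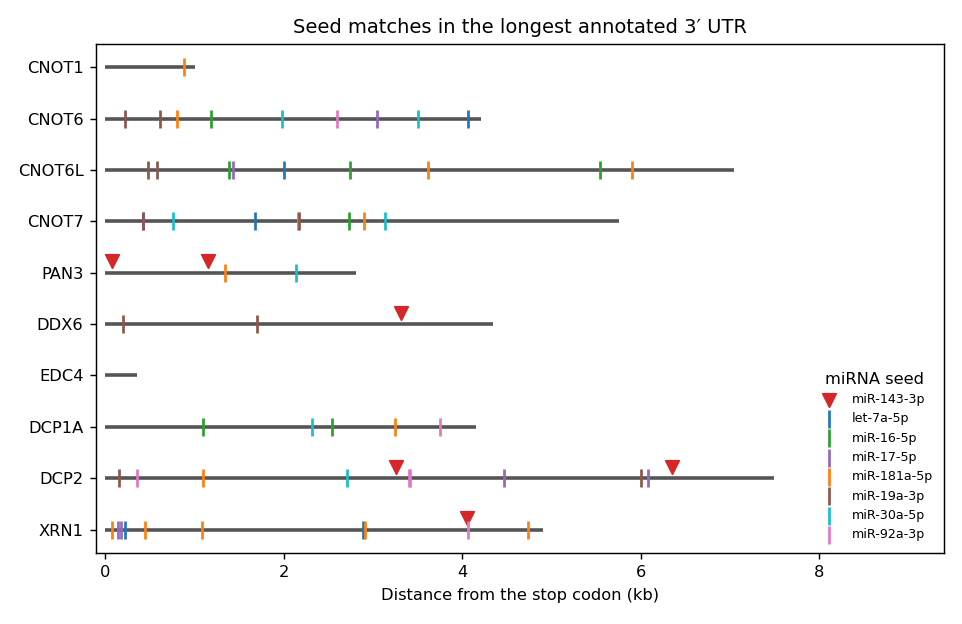
Longest annotated 3′ UTR of each mRNA drawn from the stop codon (x axis, kilobases), with red triangles for miR-143-3p matches and coloured ticks for 7 other seeds. EDC4 (355 bases) holds no match, CNOT1 holds 1, and DCP2 and XRN1 hold 11 each.

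Other genes of the pathway were set beside the members by lists written from general knowledge. For comparison with the list counts, 17.7% of all rows were at least 2-fold higher and 14.1% lower in the AGO pair. In AGO over IgG these shares were 34.5% and 36.2% in control cells and 26.6% and 33.5% in miR-143 cells. The list counts were not tested against these shares. Of 10 further deadenylation genes, the remaining CCR4-NOT subunits, PAN2 and PARN among them, 2 were at least 2-fold higher and 0 lower in the AGO pair, with a median of 0.03, and TNKS1BP1 at 1.404 and CNOT8 at -0.87 marked the range. In AGO over IgG of control cells 3 were higher and 3 lower (median -0.59), and in miR-143 cells 4 and 3 of 9 (median -0.26). CNOT10, in a row joined with SUGT1P2, was listed at 60.1 FPKM (IgG) and 1.01 FPKM (AGO) in control cells, and its values in miR-143 cells were 0.437 (IgG) and 0.513 FPKM (AGO). PARN, a poly(A)-specific ribonuclease, had 57.3 FPKM with IgG and 7.98 FPKM with AGO in control cells and 2.34 and 8.16 FPKM in miR-143 cells. CNOT2 was at 0 and 3.16 FPKM in control cells and at 16.0 and 7.71 FPKM in miR-143 cells. As for DCP2, DDX6 and DCP1A, control_IgG held the highest or the lowest value of these genes.

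Further decapping genes, including the LSM ring, were mostly lower with AGO2. In control cells 8 of 14 were at least 2-fold lower and 3 higher (median -1.28), and in miR-143 cells 9 of 14 were lower and 4 higher (median -1.70). DCPS, the scavenger enzyme that hydrolyses the released cap, was an exception, at 4.94 FPKM with IgG and 80.1 with AGO in control cells and at 6.82 and 33.9 FPKM in miR-143 cells. LSM5 held 55.4 and 0.389 FPKM in control cells and 14.8 and 1.58 FPKM in miR-143 cells, and PNRC2, a decapping coactivator, was at 0 in control_IgG, 42.6 FPKM in miR143_IgG and 1.20 and 1.16 FPKM in the AGO groups. In the AGO pair 3 of 12 were higher, EDC3 most at 1.53, and DCPS was the 1 that was lower, at -1.22.

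The exosome and its SKI cofactors, which degrade mRNA from the 3′ end, had 4 of 15 genes at least 2-fold higher and 3 lower in the AGO pair (median 0.44). With 1 FPKM added, EXOSC8 was the 1 gene of any list past 10-fold in this pair, at 0.654 FPKM in control_AGO and 26.9 in miR143_AGO, with 5.78 in control_IgG and 60.5 in miR143_IgG. Its mock values differed in the same direction. On the deposited FPKM, DIS3L (3.57 to 0.262 FPKM) and XRN2 (0.101 to 1.08 FPKM) also differed over 10-fold. Of the decapping genes, LSM6 rose from 0 to 1.83 FPKM. LSM3 was 12.4-fold higher (0.0756 to 0.940 FPKM), with both values below the filter of 1 FPKM. In AGO over IgG of control cells, 4 of 15 exosome and SKI genes were higher and 7 lower (median -0.73). EXOSC7, in a row joined with CLEC3B, was lowest at -4.14. In miR-143 cells 5 of 16 were higher and 5 lower (median 0.22).

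Among poly(A)-binding proteins and adaptors that recruit deadenylases, BTG2 had AGO over IgG ratios of 4.59 and 5.45 in control and miR-143 cells. BTG2, an antiproliferative protein that binds CAF1 deadenylases, had IgG values of 11.1 and 5.31 FPKM and AGO values of 289 and 274 FPKM in control and miR-143 cells. GIGYF1, a translational repressor, had 2.15 and 10.1 FPKM with IgG and 74.7 and 53.0 FPKM with AGO. Both AGO values exceeded both IgG values for these genes, as for the members CNOT1, CNOT6, CNOT6L and DCP1A. Across the list 5 were at least 2-fold higher and 5 lower of 16 in control cells (median -0.04) and 7 and 4 in miR-143 cells (median 0.90). In the AGO pair 3 of 16 were higher and 0 lower (median -0.01). GIGYF2, in a row joined with C2orf82, was at 0 (IgG) and 2.33 FPKM (AGO) in control cells and at 9.37 and 0.778 FPKM in miR-143 cells, and ZFP36L1 at 20.3 and 3.43 FPKM and at 1.10 and 7.70 FPKM.

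The Argonaute and TNRC6 mRNAs, which encode the silencing complex upstream of the decay factors, had the highest medians of AGO over IgG among the 5 further lists. In control cells 6 of 7 were at least 2-fold higher and TNRC6C was lower at -3.02 (median 2.32), and in miR-143 cells 4 were higher and AGO3 was lower at -2.12 (median 1.35). The row that joins AGO2 with RP11-642A1.2 was listed with IgG at 1.83 and 4.57 FPKM and with AGO at 36.6 and 36.2 FPKM in control and miR-143 cells. TNRC6A had 2.10 and 1.28 FPKM with IgG and 35.8 and 25.9 FPKM with AGO, and TNRC6B 0.517 and 0.372 against 6.60 and 13.4 FPKM. Between the AGO precipitates 0 of 7 were higher and AGO4 was lower at -2.53 (median -0.03). AGO4 was at 0 and 13.1 FPKM in control cells and at 3.13 and 1.45 FPKM in miR-143 cells. TNRC6C had 22.4 and 1.88 FPKM in control cells and 0.348 and 2.44 FPKM in miR-143 cells.

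**Figure D5:**
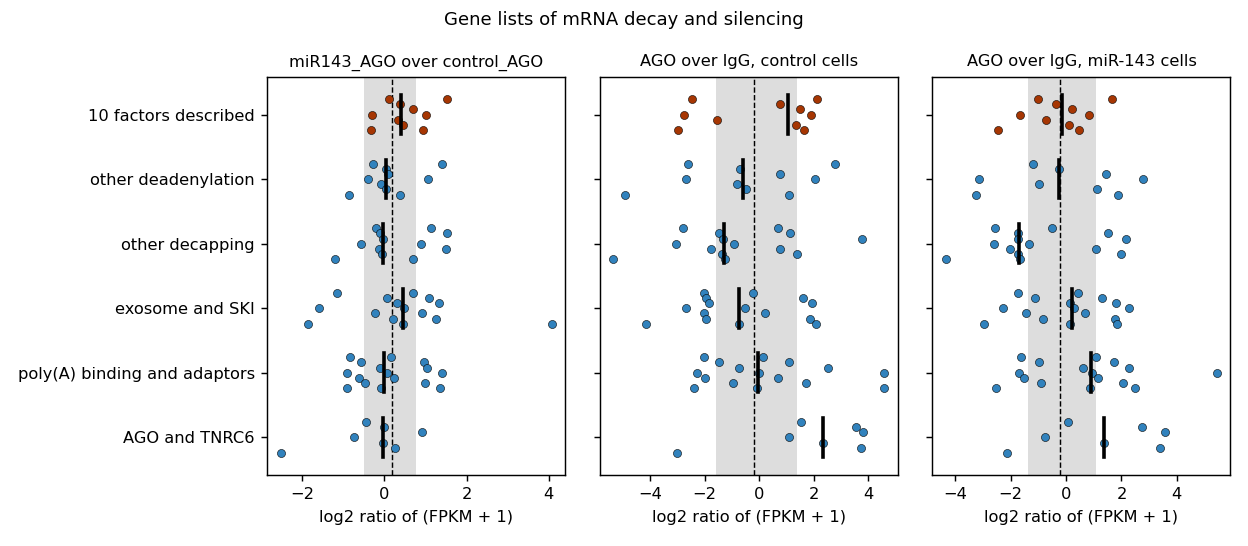
Log2 ratio of FPKM + 1 (x axes) for the 10 factors (brown) and 5 further gene lists (blue), 1 point per gene tested, in the AGO pair, in AGO over IgG of control cells and in AGO over IgG of miR-143 cells. Black bars are list medians (0.41, 1.05 and -0.13 for the 10 factors), and dashed line and grey band the median and the middle 50% of all rows compared.

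By likeness over the 4 centred log2 values, the genes outside the lists nearest to the members' mean profile were SNRNP70, FLOT2 and BBC3, at Euclidean distances of 0.113, 0.1195 and 0.148 among 3971 rows. The members lay at 0.804 to 2.70 from their own mean, so that the mean profile describes no member closely.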

How the data were processed

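RNA from AGO2 and IgG immunoprecipitates of K562 cells was sequenced in 12 labelled samples, 3 in each of 4 groups, and groups were read from the sample titles. The labels describe rRNA removal with Ribo-Zero Gold, random-primed cDNA (TargetAmp) and paired-end sequencing, whereas the methods of the study name a TruSeq RNA kit. The submitters' processing notes name TopHat, Cufflinks and hg38, with versions and annotation not given in the sources used here. The authors deposited 1 table per group with FPKM values, named as group averages in the header, for 61782 rows, 2140 of which join several genes. FPKM is scaled to all mapped fragments, so that abundant RNAs lower the other values. Single replicates were not analysed here, and a planned test on them gave way to ratios of the averages, without a p-value or an interval. Depth was judged only from the low edge, the 10th lowest FPKM times transcript length above 0 among genes with 1 transcript in GENCODE 29.

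Ratios were log2 of (FPKM + 1) over (FPKM + 1), computed with Python 3.11.15, numpy 2.4.6 and pandas 2.3.3 over rows of at least 1 FPKM in a group compared, and a row was counted at 2-fold or at 10-fold. The study's 10-fold threshold was for increased binding in miR-143 over control cells. Here 10-fold was counted in either direction and in each comparison. The computation was tested on simulated data. Of 59642 rows with 1 name, 36262 matched GENCODE 29 by symbol, and the study may have used another annotation. The 3′ UTR was the longest after the stop codon of a coding transcript, and seeds came from the RefSeq miRNA table (GRCh38.p14). UTR quartiles and seed shares refer to coding rows that passed the filter of the AGO pair. Scaling alternatives used 4013 rows of 1 protein-coding gene at 1 FPKM or more in all groups (same median, same upper quartile) or the sum over all coding rows. Other alternatives were pseudocounts of 0.1 and 0.01, a mean of at least 5 FPKM, no filter, rows of one name summed, and joined rows left out. Named were the 10 members, list genes 10-fold different in a comparison or the highest and lowest of a list, MIR143, cell type markers (some of which are not reported here), and the 3 rows nearest in profile. Genes overlapping a member or its pseudogenes were picked once values were known. The members, lists and seed families were chosen with earlier results of these data known.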

Additional observations from a re-analysis of the deposited data

Results flagged for a closer look

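In 5 members the effect of miR-143 cells over control cells, or of AGO over IgG, had opposite signs in the groups set side by side. Opposite signs between the AGO and IgG pairs occurred in 4 of 10 members and in 48.8% of 8056 rows, and between the populations in AGO over IgG in 3 of 10 members and in 34.6% of 8648 rows, so that they are common among all rows. These differences were not tested, because each group has 1 average. CNOT1 was higher in miR-143 cells in the IgG precipitates and lower in the AGO precipitates, with AGO minus IgG at -1.92 on the log2 scale. PAN3 did the same, and it also changed sign between cell populations in AGO over IgG, with a difference of -2.999 for either contrast. DDX6 (2.09) and DCP2 (3.09) went the other way, lower in miR-143 cells with IgG and higher with AGO2, and DCP2 also changed sign between the populations in AGO over IgG. XRN1 was higher with AGO2 in control cells and lower in miR-143 cells, with a difference of -1.49. In control_IgG, PAN3 and XRN1 lay at 2.86 and 4.63 times the low edge, and CNOT1 and DCP2 at 540 and 1222 times. The part of depth in these values was not tested.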

How the results depend on the processing

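No paired analysis was possible because each group has 1 average over its samples, so that the numbers in the sample titles cannot be matched to values. For the same reason no sample could be left out. Of the members' medians and counts, 119 of 135 values under 9 alternatives were counted as close to those reported, 15 as moved and 1 as reversed. A small median that changed sign could still be counted as close. Leaving out the filter, or summing rows that share a name, could not move the members. All 10 passed the filter, and each had a single row. Single log2 ratios were followed only under the pseudocounts and the scalings, where 224 of 250 stayed and 26 moved. The median of AGO over IgG in control cells (1.05) was 1.81 with a pseudocount of 0.1, 1.97 with 0.01, and -2.46 over the 5 members with a mean of at least 5 FPKM. The IgG-corrected median (-0.33) was -1.45 and -1.48 with these pseudocounts and 0.41 over the 6 members at a mean of 5 FPKM. These medians lie between members far apart on either side, and the filter leaves fewer of them. The 2 members 2-fold higher in the AGO pair became 1 with the same median, at a mean of 5 FPKM, and without joined rows, and 3 with pseudocounts of 0.1 and 0.01 and with the same upper quartile. The 1 member higher in AGO over IgG of miR-143 cells became 2 under each of the 3 scalings and 0 at a mean of 5 FPKM. That filter also took the 7 higher members of the IgG pair to 2, the 5 of AGO over IgG in control cells to 1, and the 4 lower IgG-corrected members to 1. Among single ratios, the IgG-corrected value of CNOT6L changed sign with pseudocounts of 0.1 and 0.01, which its 0 in control_IgG sets, and DDX6 in AGO over IgG of miR-143 cells from -0.36 to 0.04 with the same coding sum, where the cause was not tested. The low edge was highest in control_IgG, where 4 members lay at less than 10 times that edge. Fragment numbers are unknown, and the part of depth was not tested.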
